A study of Mus musculus with 8 samples.

Results

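The mRNAs of the cytosolic ribosomal proteins were followed in neutrophils taken from mouse lungs with and without pneumococcal pneumonia. A gene was included where the RefSeq transcript of its row carried a symbol that starts with Rpl or Rps followed by a digit, or was Rplp0, Rplp1, Rplp2 or Rpsa, with pseudogene symbols containing -ps and the Rps6k kinases left out. The rule found 88 genes on 93 of the 24625 rows of the array table, of which 19915 rows (80.9%) had a symbol, giving 19836 distinct symbols. Where a gene had several rows the row with the highest mean was used, which applied to 5 genes. By role, 43 of the 88 are core proteins of the large subunit, 30 are core proteins of the small subunit and 2 belong to the stalk. A further 12 are paralogs or gene copies, and 1, Rps19bp1, encodes a protein that binds Rps19 and is not itself part of the ribosome. For 7 symbols that the rule names, Rplp2 and Rps27 among them, no row was matched, and these are not analysed here.

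Both groups were wild type mice aged 6-12 weeks by the labels, which the methods describe as C57BL/6J, age- and sex-matched, from colonies begun with purchased females, with a narrower age range than the labels give. Either PBS or a suspension of Streptococcus pneumoniae (SP), each 2.3 µl per g body weight, was instilled through the trachea into the left lung, and neutrophils were collected 24 h later with anti-Ly6G magnetic beads from dissociated lung. There were 4 PBS and 4 SP samples, each on 1 array, so the number of arrays limits the precision. Purity was described only for cells from lungs with pneumonia. The study describes each sample as coming from a mouse, and the p-values measure the spread between these 8 samples.

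A ribosome is built from ribosomal RNA and many small, mostly basic proteins, and the large subunit forms peptide bonds while the small subunit decodes the mRNA. In mammals most of their mRNAs begin with a run of pyrimidines, the terminal oligopyrimidine (TOP) motif, through which growth signalling sets their translation together. Mature neutrophils are short-lived cells that no longer divide and finished most ribosome production earlier in their development in bone marrow.

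Several facts about the arrays bear on every value below. Values are log2 intensities, on which a difference of 1 is 2-fold. The median over all rows was 6.06 to 6.20 on the PBS arrays and 5.78 to 5.91 on the SP arrays, a gap of 0.28, although the deposited values were described as quantile normalized. Rows of 3 Y-linked genes ranged from 4.33 to 4.90 and are used here as a rough level for a dim row, although the sex of these mice is not stated outright. The 12 neutrophil markers were high on every array, with a mean of 12.69 to 13.05 in PBS and 12.39 to 13.05 in SP, and S100a8, a calcium-binding protein abundant in neutrophils, was 13.20 ± 0.06 (SD, n = 4) in PBS and 13.01 ± 0.22 (SD, n = 4) in SP. Markers of several other lung cells were present and changed between the groups, where 22.6% of all rows were lower in SP and 21.5% higher. All 7 ciliated, all 5 club, all 7 alveolar type 2 and all 3 mesothelial markers fell in SP, as did 4 of 5 alveolar type 1, 7 of 8 endothelial, 6 of 7 B cell and 3 of 6 alveolar macrophage markers (limma, adjusted p at most 0.05). In the alveolar macrophage list 1 marker rose, the 7 monocyte or macrophage markers had 1 lower and 3 higher with a median of 0.73, and the 12 neutrophil markers had 3 lower and 1 higher. Of the T cell markers 0 of 7 were lower and 1 higher, and 0 of 5 NK cell and 0 of 3 erythroid markers were called. Lower were 2 of 7 fibroblast, 2 of 5 platelet and 2 of 6 dendritic cell markers, with 1 dendritic cell marker higher. Scgb1a1, the secretory protein of club cells, was 13.63 ± 0.09 (SD, n = 4) in PBS and 13.00 ± 0.04 (SD, n = 4) in SP. Sftpc, surfactant protein C of alveolar type 2 cells, was 13.33 ± 0.08 and 12.39 ± 0.34 (SD, n = 4 each). Both examples fell less than the median of their lists, which was -2.63 for the club and -1.22 for the alveolar type 2 markers.

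Ribosomal protein mRNAs leaned downwards in SP as the values were deposited. Of the 88 genes, 36 (40.9%) were lower in SP by limma at an adjusted p of at most 0.05, against 22.6% of all rows, and 1, Rps4l, was higher, against 21.5% of all rows. Rows called in either direction made up 44.1% of the table. The remaining 51 did not pass, and no gene passed at 2-fold, against 11.3% of all rows lower and 6.37% higher at 2-fold. The difference SP minus PBS was below 0 in 72 of the 88 genes, with a median of -0.27 and a range from -0.997 for Rpl10a to 0.90 for Rps4l, while the median over all rows was 0.10. All 4 SP arrays lay below all 4 PBS arrays in 31 genes, where 21.8% of all rows did so, and above them in 3 genes (Rpl3l, Rps24 and Rps4l), where 27.2% of all rows did so. The 36 lower genes were 13.6% to 49.9% lower, with a median of 25.8% and standard errors of the log2 difference from 0.067 to 0.19. The count fell to 19 without PBS replicate 1, to 20 without PBS replicate 2 and to 19 without SP replicate 1, and the median then stayed below 0, at -0.24, -0.22 and -0.24. Without SP replicate 3 or SP replicate 4 the count of higher genes was 2. Most ribosomal protein rows are bright, with 77 of the 88 among the 6157 rows with a mean of at least 8.47. Among those 77 genes 34 were lower and 0 higher, where 27.2% of the 6157 rows were lower and 30.5% higher. At an unadjusted p under 0.05 the count of lower genes among the 88 was 48. Of the 36 called lower, 7 kept that call in every alternative setting.

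**Figure D1:**
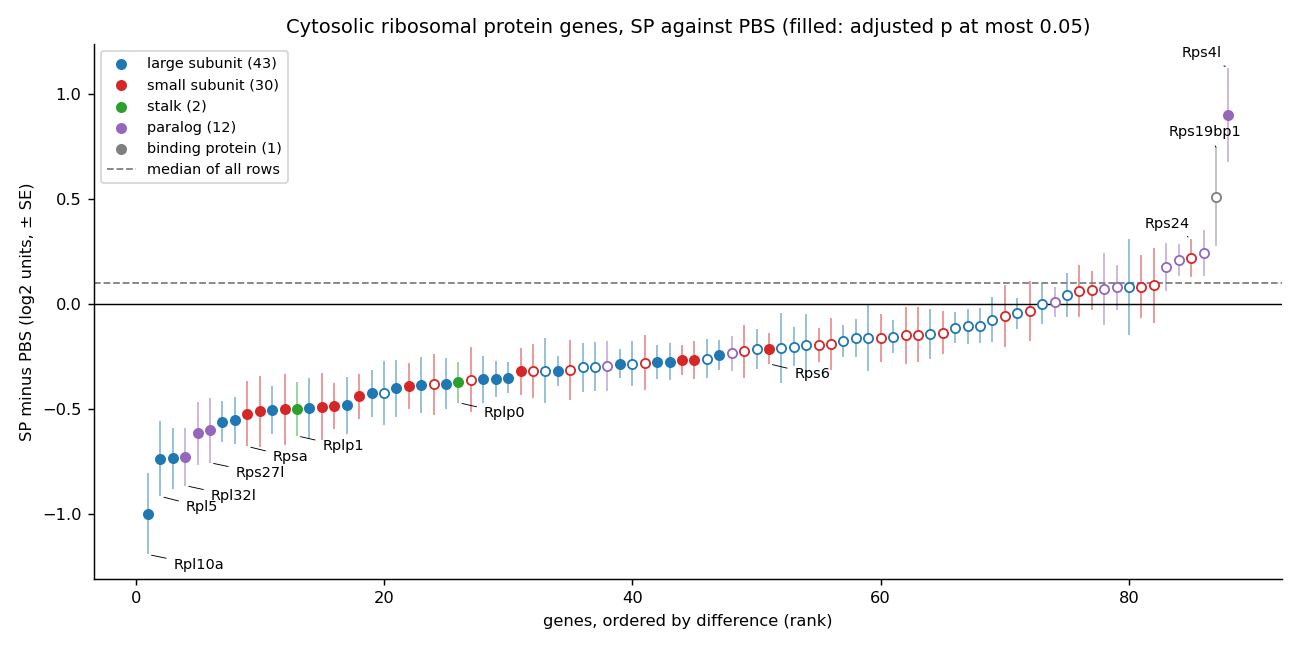
Difference SP minus PBS in log2 intensity for each of the 88 ribosomal protein genes, ordered from lowest to highest and coloured by role, filled where called, with bars of 1 standard error and the median of all rows dashed. Values run from -0.997 (Rpl10a) to 0.90 (Rps4l) and 72 lie below 0, which depends on the scaling, since the median of -0.27 becomes 0.016 when each array is centred on its own median.

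The direction of these differences relative to 0 depended on how the arrays were scaled. With each array centred on its own median over all rows, the median of all rows moved from 0.10 to 0.38, that of the 88 genes moved from -0.27 to 0.016, while the gap between the medians, which a constant shift per array cannot change, was -0.37 in both. In that scaling 7 genes were lower (Rpl5, Rpl10a, Rpl11, Rpl31, Rpl32l, Rpl36a and Rpl36al) and 13 higher, among 16.4% and 57.7% of all rows. All 7 had also been lower in the values as deposited, and 1 of the 13, Rps4l, had been higher. With a further round of quantile normalization the median was 0.016 over all rows and -0.43 over the 88 genes, a gap of -0.44, and 52 were lower and 2 higher, among 22% and 19.6% of all rows. With arrays weighted by quality the gap was -0.29, with 40 lower and 4 higher. The number of genes below the median of all rows was 82 of 88 as deposited, and hence also with centred arrays, 78 after the further quantile normalization and 75 with array weights. Among the 6157 brightest rows the 2 medians as deposited lay closer together, at 0.018 over all of those rows and -0.27 over the 77 genes there. Whether total mRNA per cell differed between the groups was not measured, so a fall of these mRNAs and a rise of the others cannot be told apart.

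**Figure D2:**
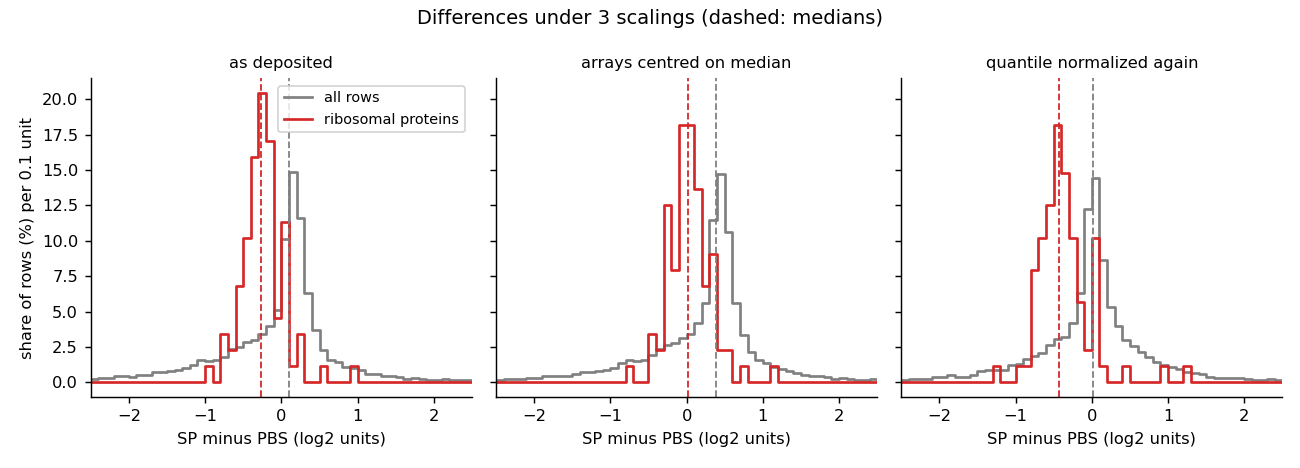
Distribution of the difference SP minus PBS in log2 intensity over all rows and over the 88 ribosomal protein genes, in 3 scalings of the arrays. The median of the 88 genes is -0.27 as deposited, 0.016 with arrays centred on their medians and -0.43 with a further quantile normalization, and it lies below the median of all rows by 0.37, 0.37 and 0.44.

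The order of the arrays within a group was shared by most of the core genes. Among the 75 core genes PBS replicate 2 was the highest PBS array in 67, and PBS replicates 3 and 4 were the lowest in 36 and 37. SP replicate 4 was the highest SP array in 61 of the 75 and SP replicate 3 the lowest in 53. The mean over the 75 genes was 10.99, 11.10, 10.81 and 10.79 on PBS replicates 1 to 4 and 10.63, 10.65, 10.53 and 10.80 on SP replicates 1 to 4. On this mean SP replicate 4 lay inside the PBS range and the other 3 SP arrays lay below it. The median over all rows was also highest on PBS replicate 2 (6.20) and SP replicate 4 (5.91) and lowest in SP on replicate 3 (5.78). So were the means of the initiation, elongation and ribosome biogenesis factors described below, while the mitochondrial ribosomal proteins were highest on PBS replicate 1 (7.88). The 12 neutrophil markers had another order, with means of 12.88, 12.69, 13.05 and 12.98 in PBS and 12.55, 12.39, 13.05 and 12.72 in SP. Their mean was lowest on replicate 2 and highest on replicate 3 in both groups. Some lists of other lung cells had the order of arrays seen in the core genes and others did not. The mean of the 7 alveolar type 2 markers was 12.48, 12.84, 12.36 and 12.38 in PBS and 11.46, 11.02, 10.33 and 11.81 in SP, and that of the 8 endothelial markers was 11.01, 11.39, 10.50 and 10.40 in PBS and 9.38, 9.58, 8.75 and 9.89 in SP. Both lists were highest on PBS replicate 2 and, in SP, on replicate 4, and both were lowest in SP on replicate 3. The alveolar type 1 and club lists were highest and lowest on these same arrays. The 3 mesothelial markers were instead lowest on PBS replicate 2 (9.69) and highest on PBS replicate 3 (10.31). The alveolar macrophage list was highest on PBS replicate 1 (9.51). In SP the mesothelial and alveolar macrophage lists were highest on replicate 4 (7.30 and 8.50) and lowest on replicate 3 (5.91 and 8.12). The 7 B cell markers were highest on PBS replicate 1 (8.49) and SP replicate 2 (7.12), and the ciliated list was highest in SP on replicate 2 (7.15). Summed on the intensity scale and then taken as log2, the alveolar type 2 list ranged from 15.42 to 15.81 in PBS and from 13.64 to 14.94 in SP. The endothelial list ranged from 13.70 to 14.62 and from 12.38 to 13.21, the club list from 15.03 to 15.37 and from 13.57 to 13.93, and the ciliated list from 12.65 to 13.36 and from 9.99 to 10.77. None of the alveolar type 2 markers was near the level of the Y-linked rows in either group, and the part of these cells in the ribosomal protein differences was not tested. In these bulk samples a smaller share of a cell type and less mRNA per cell cannot be told apart.

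The mRNAs of both stalk proteins with a matched row were lower in SP. Of all rows 22.6% were called lower, and 21.8% had every SP array below every PBS array. The stalk is the flexible arm of the large subunit that recruits elongation factors, and Rplp0 anchors it while Rplp1 is one of its acidic arms. Rplp0 was 12.49, 12.56, 12.34 and 12.36 on the PBS arrays and 11.98, 12.02, 11.97 and 12.28 on the SP arrays. Every SP array lay below every PBS array, and the difference was -0.37 with a standard error of 0.10 (limma, adjusted p = 0.0148). Rplp1 was 11.09, 11.34, 10.91 and 10.97 in PBS and 10.49, 10.57, 10.41 and 10.84 in SP, again without overlap and with a difference of -0.50 (limma, adjusted p = 0.014). Both kept their calls when any 1 array was left out, and neither was called with arrays centred on their medians.

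In the large subunit 20 of 43 core genes (46.5%) were lower, against 22.6% of all rows, and 0 higher, against 21.5%, while 40 of the 43 differences were below 0, and the median was -0.28. Rpl10a, which lies beside the tRNA exit site, had the lowest difference of all 88 genes. It was 11.97, 12.13, 11.72 and 11.97 in PBS and 10.92, 11.05, 10.42 and 11.39 in SP. No SP array reached the lowest PBS array, SP replicate 4 coming closest, and the difference was -0.997 with a standard error of 0.19 (limma, adjusted p = 0.00392), or 49.9% lower. Rpl5 and Rpl11 carry 5S ribosomal RNA and, when unassembled, bind the ubiquitin ligase Mdm2. Rpl5 was 11.56, 11.83, 11.21 and 11.21 in PBS and 10.82, 10.73, 10.34 and 10.96 in SP, a difference of -0.74 (limma, adjusted p = 0.0114). Rpl11 was 10.42, 10.69, 10.27 and 10.32 in PBS and 9.86, 9.85, 9.73 and 10.05 in SP, a difference of -0.55 (limma, adjusted p = 0.00511). Both partners of the 5S particle were lower, and neither overlapped between groups, where 21.8% of all rows had every SP array below every PBS array. The count of 20 became 11 without PBS replicate 1, without PBS replicate 2 or without SP replicate 1.

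The mRNAs of further large subunit proteins were also lower. Rpl36a, an X-linked gene, was 11.08, 11.08, 10.79 and 10.94 in PBS and 10.23, 10.28, 9.89 and 10.57 in SP. Its difference was -0.73 (limma, adjusted p = 0.00429) and the groups did not overlap. Rpl31, with a standard error of 0.10, had the lowest adjusted p of the 88 genes at a difference of -0.56 (limma, adjusted p = 0.00229). Rpl32 was 12.40, 12.37, 12.19 and 12.22 in PBS and 11.79, 11.89, 11.47 and 12.12 in SP, a difference of -0.48 (limma, adjusted p = 0.0219). Rpl13a, also a component of the complex that silences inflammatory mRNAs in interferon-treated myeloid cells, was 11.02, 11.06, 10.66 and 10.66 in PBS and 10.57, 10.50, 10.21 and 10.59 in SP. Its groups nearly touched, the difference was -0.38 (limma, adjusted p = 0.0451), and the call held in only 5 of 16 alternative settings. Rpl10, which is added last at the peptidyl transferase centre, was 12.44 ± 0.10 (SD, n = 4) in PBS and 12.16 ± 0.08 (SD, n = 4) in SP. Its difference was -0.27 (limma, adjusted p = 0.0237), becoming 0.0063 with arrays centred on their medians, and the call held in 11 of 16 alternative settings. Rpl22, an RNA-binding protein needed by developing T cells, had a difference of -0.36 (limma, adjusted p = 0.0314). Its call held in 6 of 15 alternative settings. Rpl39, a short protein lining the exit tunnel, had a difference of -0.35 (limma, adjusted p = 0.0112). Of the 23 large subunit genes not called, Rpl3 had a difference of -0.42 (limma, adjusted p = 0.052), while Rpl7 was at -0.19 and Rpl37 at -0.15.

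**Figure D3:**
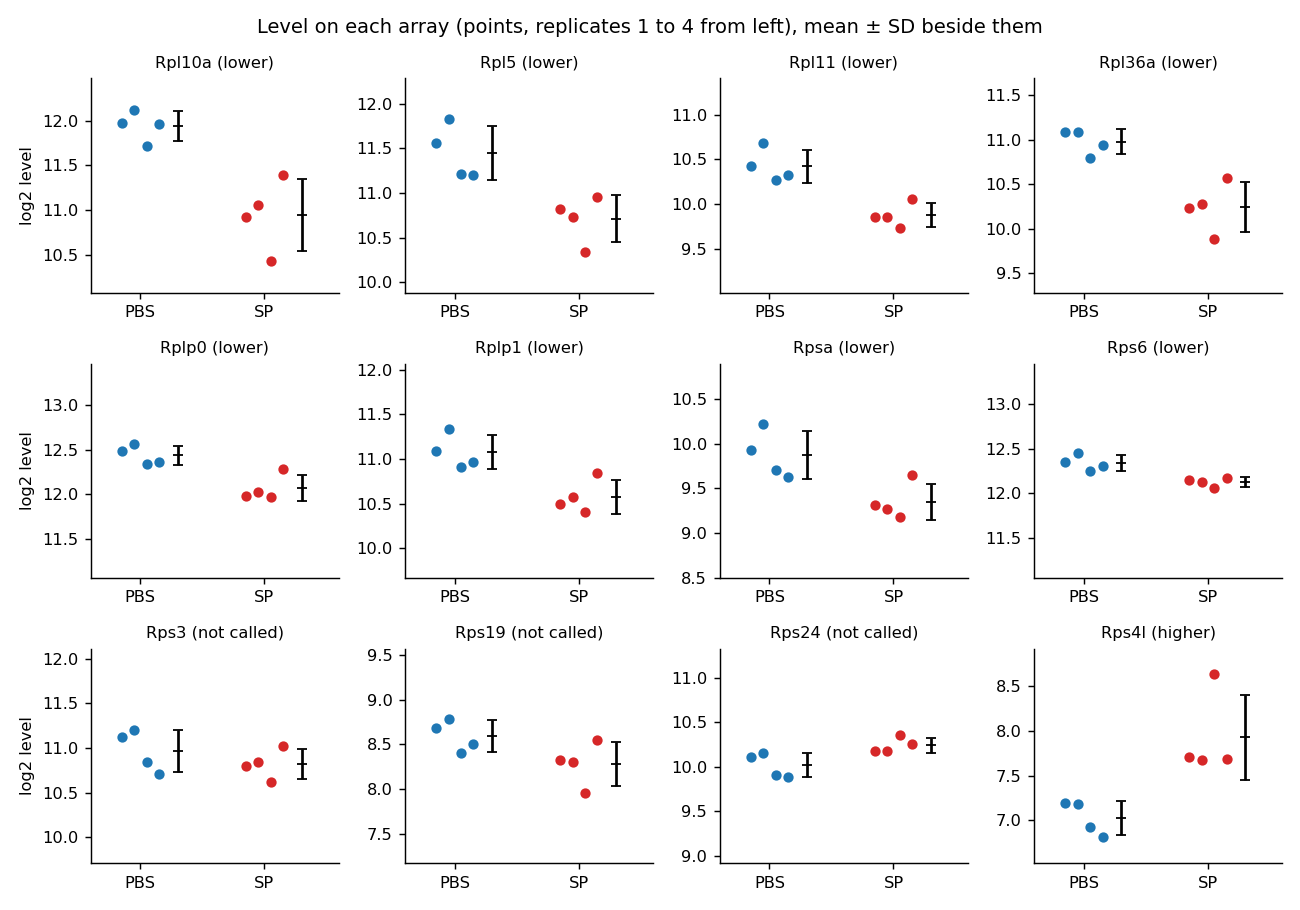
Log2 intensity on each of the 4 PBS and 4 SP arrays for 12 ribosomal protein genes, with the group mean ± SD beside the points. The SP points of Rpl10a, from 10.42 to 11.39, lie below its PBS points, from 11.72 to 12.13, and those of Rps4l, from 7.68 to 8.63, lie above its PBS points, from 6.81 to 7.19.

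In the small subunit 11 of 30 core genes (36.7%) were lower, against 22.6% of all rows, and 0 higher, against 21.5%, while 25 of the 30 differences were below 0, and the median was -0.24. Rpsa, the small subunit protein also known as the laminin receptor, was 9.93, 10.22, 9.70 and 9.63 in PBS and 9.31, 9.26, 9.18 and 9.64 in SP. SP replicate 4 reached the lowest PBS array, the difference was -0.52 (limma, adjusted p = 0.0261), and the call held in 8 of 16 alternative settings. Rps4x, an X-linked protein of the small subunit, was 10.92, 10.95, 10.57 and 10.36 in PBS and 10.14, 10.15, 9.96 and 10.54 in SP. SP replicate 4 was again inside the PBS range, the difference was -0.50 (limma, adjusted p = 0.0429), and the call held in 6 of 16 alternative settings. Rps6, the substrate of the S6 kinases, was 12.35, 12.45, 12.25 and 12.31 in PBS and 12.16, 12.13, 12.06 and 12.18 in SP. Its groups did not overlap, but the difference was small at -0.21 (limma, adjusted p = 0.0451), the call held in 4 of 16 alternative settings, and the sign turned to 0.071 with arrays centred on their medians. Without PBS replicate 1 the count of 11 became 3, and it became 4 without PBS replicate 2, 3 without SP replicate 1, 5 without SP replicate 2 and 6 without SP replicate 3.

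Other small subunit genes known for their roles in disease or outside the ribosome did not pass. Rps3, which also acts with the p65 subunit of NF-kB, was 11.13, 11.20, 10.84 and 10.70 in PBS and 10.79, 10.84, 10.62 and 11.03 in SP, so that the groups overlapped (difference -0.15, limma adjusted p = 0.374). Rps19, mutated in Diamond-Blackfan anaemia, was 8.69, 8.79, 8.40 and 8.50 in PBS and 8.32, 8.31, 7.96 and 8.55 in SP, a difference of -0.31 (limma, adjusted p = 0.0995). Rps27a, which is made as a fusion to ubiquitin, was 9.71, 9.87, 9.68 and 9.44 in PBS and 9.67, 9.54, 10.16 and 9.67 in SP. SP replicate 3 alone was above the PBS range there, and the difference of 0.08 became -0.050 without that array. Rps24 was the one core gene whose SP arrays all lay above its PBS arrays, at 10.11, 10.16, 9.91 and 9.89 in PBS and 10.18, 10.18, 10.36 and 10.25 in SP, a difference of 0.22 that did not pass (limma, adjusted p = 0.0736). Rps24 was named after its values were seen.

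Among the 12 paralogs and copies 3 (25%) were lower (Rpl32l, Rpl36al and Rps27l), near the 22.6% of all rows, and 1 (8.33%) was higher (Rps4l), where 21.5% of all rows were. Rpl36al, an autosomal copy of Rpl36a, was 10.62, 10.73, 10.38 and 10.81 in PBS and 10.07, 9.94, 9.72 and 10.35 in SP, a difference of -0.61 (limma, adjusted p = 0.0111). Rps27l, a p53-responsive relative of Rps27, was 11.14, 11.17, 10.89 and 11.01 in PBS and 10.44, 10.45, 10.08 and 10.84 in SP, a difference of -0.60 (limma, adjusted p = 0.0144). Rpl32l was 7.92, 8.27, 7.74 and 7.99 in PBS and 7.27, 7.40, 6.98 and 7.38 in SP, a difference of -0.73 (limma, adjusted p = 0.00339). None of these 3 overlapped between groups, where 21.8% of all rows had every SP array below every PBS array. The count of lower paralogs was 5 without PBS replicate 4. Rps4l, which RefSeq classes as a transcribed pseudogene related to Rps4x, was 7.19, 7.18, 6.93 and 6.81 in PBS and 7.71, 7.68, 8.63 and 7.69 in SP. All 4 SP arrays were above the PBS arrays, SP replicate 3 by the most, and the difference was 0.90 with a standard error of 0.22 (limma, adjusted p = 0.0123). Rps4l was called higher in all 15 alternatives that tested it. Rpl22l1 (difference -0.29, limma adjusted p = 0.0748), Rpl37rt (-0.23, limma adjusted p = 0.0509), Rpl7l1 (0.08, limma adjusted p = 0.531) and Rps27rt (0.07, limma adjusted p = 0.725) were not called. Rpl10l, Rpl3l, Rpl39l and Rps23rg1 were within the range of the Y-linked rows or below it in PBS, and none was called. Rps19bp1 was 7.10, 6.90, 7.09 and 6.96 in PBS and 7.56, 8.00, 6.77 and 7.76 in SP, with 3 SP arrays above and 1 below the PBS range, and was not called (difference 0.51, limma adjusted p = 0.106).

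The difference between a copy and its parent within the same array is free of array scaling by a constant, and its change between groups was compared for 10 pairs, a contrast chosen after the values were seen. With 4 arrays against 4 an exact two-sided permutation test has 70 arrangements and cannot go below 0.0286. Rps4l rose relative to Rps4x by 1.40 on the log2 scale (exact permutation p = 0.0286, adjusted over 10 pairs 0.0408), and by 1.09 without SP replicate 3. Rpl32l changed by -0.24 relative to Rpl32 at the same p, a value that turned to 0.36 with a further quantile normalization, and Rpl37rt changed by -0.078 relative to Rpl37, also at the same p. Rpl36al and Rpl36a fell by like amounts, with a change of 0.12 between them (exact permutation p = 0.257). The pair Rpl7l1 and Rpl7 gave 0.28 (exact permutation p = 0.229) and the pair Rpl22l1 and Rpl22 gave 0.063 (exact permutation p = 0.714). In the other 4 pairs, all also at the smallest p, the copy was at the level of the Y-linked rows in PBS. The adjusted value of 0.0408 is the same for all 7 pairs at the smallest p, and its size depends on these 4 being among them. Chosen after the values were seen, these p-values only describe the contrast.

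**Figure D4:**
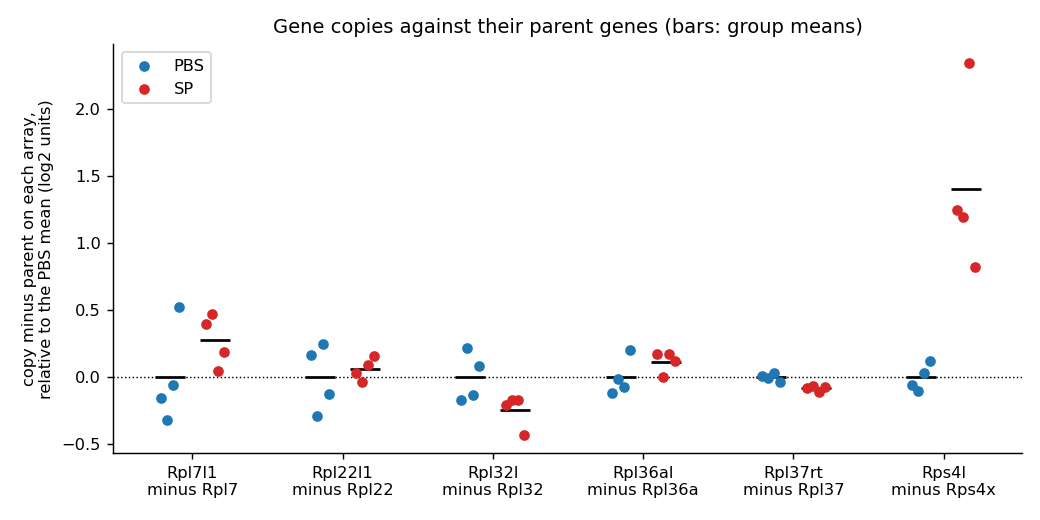
Log2 intensity of a copy minus that of its parent on each of the 4 PBS and 4 SP arrays, set to 0 at the PBS mean of each pair, with group means as lines, for the 6 pairs whose copy was above the level of the Y-linked rows. Rps4l minus Rps4x changed by 1.40 while Rpl36al minus Rpl36a changed by 0.12.

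Ribosomal protein genes have many near-identical processed pseudogenes, and the RefSeq table lists 317 symbols containing -ps for 62 of the 88 genes, with 24 for Rpl31 and 23 for Rps12. Whether probes on these rows also detect other copies was not tested. Separate rows of a gene did not always move alike. The brighter row of Rpl30 had a difference of -0.21 and was not called, while its dimmer row was 8.42, 8.41, 8.25 and 7.81 in PBS and 8.57, 8.75, 8.60 and 8.61 in SP and was called higher by 0.41 (limma, adjusted p = 0.0433). The brighter row of Rpl34 was called lower at -0.28 (limma, adjusted p = 0.0105), and its other row was at 0.03. With the mean of all rows of a symbol in place of the brightest, 35 genes were lower and 1 higher. The 88 genes lie on 19 chromosomes.

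The pyrimidine run at the transcript start was looked for in the reference sequence. Annotated starts were available for 67 of the 88 genes in the RefSeq promoter table of build GRCm38.p6. A run of at least 5 C or T from the first transcribed base was present in 17 of the 67 (25.4%), against 1426 of 27025 genes (5.28%) and 1 of 68 mitochondrial ribosomal protein genes (1.47%). Among the ribosomal protein genes called lower the share was 7 of 30 (23.3%), and among the others it was 10 of 37 (27.0%). An annotated start that is off by a few bases would hide a run, so these shares are of annotated starts only. The 30-base windows below, 15 bases on either side of the annotated start, are shown as examples of this feature in genes that were called lower (Rpl32l, Rps18, Rpl38 and Rps6) and in genes that were not (Rps15a and Rps24). The pyrimidine run is in capitals.
Rpl32l, chr10:20208424-20208453, plus strand: aaataaaatgaccagCTTCTTCCTTggtgc
Rps18, chr17:33955651-33955680, minus strand: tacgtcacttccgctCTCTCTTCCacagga
Rpl38, chr11:114668565-114668594, plus strand: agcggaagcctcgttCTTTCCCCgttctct
Rps6, chr4:86857353-86857382, minus strand: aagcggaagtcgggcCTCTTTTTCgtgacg
Rps15a, chr7:118116133-118116162, minus strand: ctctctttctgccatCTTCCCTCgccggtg
Rps24, chr14:24490663-24490692, plus strand: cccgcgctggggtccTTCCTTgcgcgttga
The differences of these genes, -0.73 for Rpl32l, -0.51 for Rps18, -0.50 for Rpl38, -0.21 for Rps6, 0.06 for Rps15a and 0.22 for Rps24, ran from among the lowest of the 88 to among the highest, so that the run was present at both ends. In the 300 bases around the start, from 250 before to 50 after, CCGGAAG occurred on either strand in 25 of the 67 promoters (37.3%) and in 9.93% of all genes. GGGCGG occurred in 59.7% and 38.2%, CCAAT in 32.8% and 41.1%, TATAAA in 11.9% and 15.7%, and AAGATGGC in 7.46% and 3.19%. A match is a run of letters and no evidence of binding.

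Outside these 88 genes, 207 genes of the ribosome pathway were compared from 8 lists. In all 43 (20.8%) were lower, against 22.6% of all rows, and 30 (14.5%) were higher, against 21.5%, with a median of -0.14. The 43 became 25 without PBS replicate 1 and 26 without SP replicate 1, and the 30 became 46 without SP replicate 3. With arrays centred on their medians the counts were 23 lower and 60 higher. In that scaling 16.4% of all rows were lower and 57.7% higher. Some cytosolic ribosomal proteins on the lists carry names outside the Rpl and Rps series. Rack1, a scaffold on the small subunit, was lower (-0.47, limma adjusted p = 0.0452), while Fau, a small subunit protein made as a fusion, had a difference near 0 that was not called (0.02, limma adjusted p = 0.86). Of 77 mitochondrial ribosomal proteins, which belong to a separate ribosome inside mitochondria, 21 were lower and 9 higher with a median of -0.24. Mrps6 (-1.42, limma adjusted p = 0.000809) and Mrpl38 (-1.16, limma adjusted p = 0.00699) fell the most, and Mrpl41 (1.65, limma adjusted p = 0.000426) and Mrpl52 (1.53, limma adjusted p = 3.25e-05) rose the most. Their differences spanned -1.42 to 1.65, a wider range than that of the cytosolic proteins.

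Translation factors were called in both directions, where 22.6% of all rows were lower and 21.5% higher. Of 34 initiation factors 5 (14.7%) were lower and 7 (20.6%) higher. Eif3f (-0.84, limma adjusted p = 0.00086) and Eif3l (-0.64, limma adjusted p = 0.0203), subunits of the eIF3 scaffold, fell, and Eif5, which triggers GTP hydrolysis at the start codon (0.73, limma adjusted p = 0.000252), and Eif4e, which binds the mRNA cap (0.65, limma adjusted p = 0.00796), rose. Of 10 elongation and termination factors 3 (30%) were lower and 2 (20%) higher. Here the recycling factor Abce1 (-0.76, limma adjusted p = 0.0445) and the release factor partner Gspt1 (-0.66, limma adjusted p = 0.0488) fell, and the release factor Etf1 (0.86, limma adjusted p = 0.000334) and the rescue factor Hbs1l (0.58, limma adjusted p = 0.0013) rose. Etf1 and Gspt1, partners in termination, thus moved in opposite directions. Among 13 other mRNAs known for a TOP start 3 (23.1%, near the 22.6% of all rows) were lower (Eif3f, Eef1b2 and Pabpc1) and 0 higher, with a median of -0.22 and the other 10 not called. Some of these, Eif3f among them, are also counted in the lists above.

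Calls among regulators and biogenesis factors also went both ways, beside 22.6% of all rows lower and 21.5% higher. Of 16 regulators of ribosome use 3 (18.8%) were lower and 3 (18.8%) higher, near the shares of all rows. Eef2k, the kinase that inhibits elongation factor eEF2, fell by 1.42 on the log2 scale (limma, adjusted p = 0.000231), and Pdcd4, an inhibitor of the helicase eIF4A, fell by 1.34 (limma, adjusted p = 0.000309). Eif2ak2, the double-stranded RNA sensor PKR that phosphorylates eIF2 alpha, rose by 1.97 (limma, adjusted p = 0.000172), and Larp1, which binds the cap and TOP run of ribosomal protein mRNAs, rose by 1.09 (limma, adjusted p = 0.000308). Larp1 was 9.44 to 10.08 in PBS and 10.78 to 10.83 in SP, without overlap. Of 50 ribosome biogenesis factors 6 (12%) were lower and 7 (14%) higher, led by Rrp1b (-0.98, limma adjusted p = 0.0157) and Nob1, the nuclease that completes small subunit RNA (-0.77, limma adjusted p = 0.0281), and by Noc4l (1.71, limma adjusted p = 3.07e-05) and Nip7 (1.57, limma adjusted p = 0.000378). Of 12 genes of the RNA polymerase I machinery, which transcribes ribosomal RNA, 4 (33.3%) were lower and 2 (16.7%) higher. The catalytic subunit Polr1a (-0.92, limma adjusted p = 0.00254) and Taf1a (-0.88, limma adjusted p = 0.00321) fell, and Taf1c (0.72, limma adjusted p = 0.0125) and Polr1d (0.33, limma adjusted p = 0.0377) rose.

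**Figure D5:**
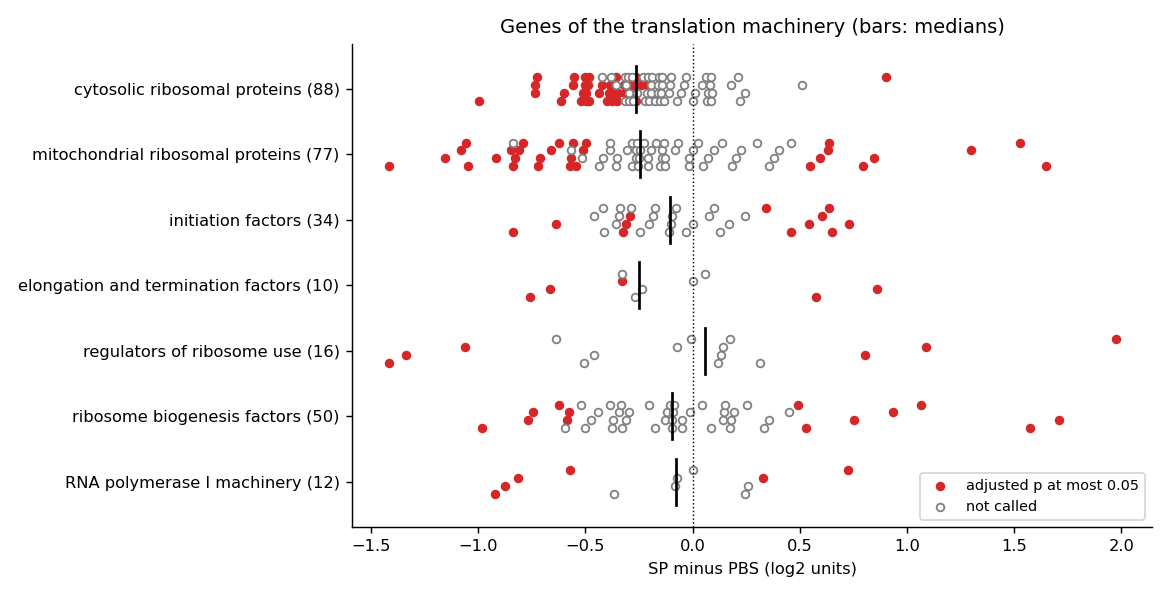
Difference SP minus PBS in log2 intensity for each gene of the cytosolic ribosomal proteins and of the other lists of the ribosome pathway, 1 point per gene, with the median of each list as a line. The cytosolic proteins have a median of -0.27 and the mitochondrial ones -0.24 as deposited, the former becoming 0.016 with arrays centred on their medians, and the widest range, -1.42 to 1.97, is that of the regulators.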

How the data were processed

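Total RNA of each of the 8 samples was hybridised to 1 Affymetrix array. The authors deposited log2 intensities, made per the labels and methods with Affymetrix Expression Console by RMA (background, GC and sequence correction, quantile normalization, median polish) and analysed in Partek, with probes grouped by a custom mapping to transcripts. Probe intensities and detection calls were not used here. Replicate numbers came from the sample titles.

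Rows were named through the RefSeq gene table. Differences SP minus PBS were fitted in R 4.3.3 with limma 3.58.1 (lmFit, eBayes) on all 24625 rows, as a two-sided test. P-values were adjusted by Benjamini-Hochberg across the whole table, and a row was called at an adjusted p of at most 0.05. The script was tested on simulated data. No filter on dim rows was applied.

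The ribosomal protein genes, the other gene lists and the tests were chosen with earlier results of these data known. Genes were named where they were among the 5 largest called falls or rises, were known for particular roles or had a paralog, with the 2 largest called changes each way of every pathway list, and others are said to be named for their values or shown as examples. Alternatives were the test named in the methods (ANOVA per row, called the methods' t-test), a trend and robust prior, a replicate block, array weights, centred arrays, a further quantile normalization, filters on dim rows, the mean of a symbol's rows, core proteins only and leaving out each array. Protein sequences were not analysed here, and some genes that the naming rule covers are not reported here. Starts and promoters came from the RefSeq promoter table (build GRCm38.p6), searched with Python 3.11.15.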

Additional observations from a re-analysis of the deposited data

Results flagged for a closer look

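Of 182 sets of 4 arrays tested with Dixon's ratio, 5 held an array far from the other 3, where chance gives about 1 set in 20. In SP, Rps4l was 8.63 on replicate 3 and 7.68 to 7.71 on the others (ratio 0.969). In PBS, Rps27rt was 9.44 on replicate 1 and 9.53 to 9.55 on the others (ratio 0.844), and Mrpl52 was 9.24 on replicate 4 and 8.98 to 9.02 on the others (ratio 0.860). The mean of the alveolar macrophage markers was 9.51 on PBS replicate 1 and 8.86 to 8.92 on the others (ratio 0.906), and 8.50 on SP replicate 4 and 8.12 to 8.19 on the others (ratio 0.837). Without SP replicate 3 Rps4l was still called higher.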

How the results depend on the processing

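With arrays centred on their medians 7 genes were lower, 13 higher and 1 at least 2-fold higher, the median was 0.016, the large subunit had 5, the small subunit 0 and the stalk 0 lower, and the pathway lists had 23 lower and 60 higher. Of all rows 16.4% were lower and 57.7% higher in that scaling. With a further quantile normalization 52 genes were lower and 2 higher, 1 at least 2-fold each way, 31 of the large subunit were lower, the median was -0.43 and the pathway lists had 36 lower and 55 higher. There 22% of all rows were lower and 19.6% higher. The methods' t-test gave 30 lower and 2 higher, with 6 of the small subunit and 28 pathway genes lower. A trend and robust prior gave 2 higher and 7 of the small subunit lower, and array weights gave 4 higher. Without dim rows 7 of the small subunit were lower. Among the 6157 brightest rows 0 were higher and 19 pathway genes lower, and with core proteins only 0 were higher. Leaving out each array gave 19 to 41 lower, 1 to 2 higher, 0 to 1 at least 2-fold lower, 11 to 22 of the large and 3 to 13 of the small subunit, 2 to 2 of the stalk and 3 to 5 paralogs lower, medians of -0.30 to -0.22, and 25 to 63 pathway genes lower and 27 to 46 higher. The cause of these shifts was not tested.

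With the replicate block 27 genes were lower and 1 higher, and 5 of the small subunit were lower. Arrays of the same number correlated at 0.016, 0.030, 0.35 and -0.27 in their deviations from the group mean, so the numbers were not taken as pairs, and not every array correlated best with its own number.

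Single genes changed sign as follows. With centred arrays the differences were 0.0063 for Rpl10, 0.13 for Rpl37, 0.049 for Rpl37rt, 0.087 for Rpl7, 0.016 for Rps23, 0.13 for Rps3, 0.071 for Rps6 and 0.099 for S100a8. With a further quantile normalization they were -0.11 for Rpl10l, 0.076 for Rpl22, 0.13 for Rpl22l1, -0.0020 for Rpl7l1, -0.22 for Fau and 0.36 for Rpl32l relative to Rpl32. With array weights they were -0.0093 for Rpl10l, -0.039 for Rps27rt and -0.066 for Fau. With 1 array left out Rpl10l ranged from -0.020 to 0.037, Rps27a from -0.050 to 0.16, Rps27rt from -0.11 to 0.18 and Fau from -0.050 to 0.081. Of the other comparisons of named genes with alternatives, 825 kept direction and side of the threshold, 123 no longer passed it and 29 newly passed it. The protein features planned for comparison were not run. With 4 arrays a group and no detection calls, calls of dim rows differed with the scaling: Rpl3l, Rpl10l, Rpl39l and Rps23rg1, none called as deposited, were higher with centred arrays.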
